A study of Rattus norvegicus with 6 samples.

Results

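AP-1 and immediate early genes, 10 transcription factor genes found by symbol in the deposited gene table of 34001 genes, were followed in rat pancreas after crush injury. The members were Fos, Fosb, Fosl1, Fosl2, Jun, Junb, Atf3, Egr1, Klf6 and Myc, and each symbol had 1 row. RNA of 6 Sprague-Dawley rats, which are outbred, was sequenced as 6 libraries, 2 rats in each of 3 groups. Control rats were anaesthetised, the abdomen was opened, the pancreas was turned with swabs, and 1 ml of saline went into the tail vein. TP rats (traumatic pancreatitis) had the gland crushed by an impactor set to 3 cm2 and 10 kg, and also received saline. TP+hucMSC-Exs rats had the same crush and an intravenous dose of 10 μg per 100 g of exosomes, small vesicles shed by human umbilical cord mesenchymal stem cells. All pancreases were taken at 24 h, a single time. The controls were thus also anaesthetised and operated on, and no uninjured rat received exosomes. Sex and age are not given in the labels. The last group is called treated from here on.

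AP-1 is a dimer of leucine zipper proteins: Jun proteins pair with each other or with Fos proteins, and the dimer binds DNA and switches on target genes. Many of its genes are immediate early genes, which are transcribed within minutes of a growth factor, stress or injury signal through MAP kinases, without new protein synthesis. In pancreas, induction of Fos, Jun, Egr1, Atf3 and Myc is known from experimental pancreatitis and from regenerating acinar tissue.

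Abundance was given as TPM, a transcript abundance that is scaled by gene length and sums to 1000000 in each library. It keeps no sequencing depth, so depth was unknown and no counting error could be given. Fold changes were computed on log2(TPM + 0.5), a scale that compresses low genes. Each is followed by ± its standard error (n = 2 libraries per group). In the fit of all 6 libraries as deposited, this error comes from the spread of genes of like level over all groups. It is not the gene's own spread, and its median over all tested genes was 1.43. Of the 10 members, 9 had a mean of at least 1 TPM over the 6 libraries and were tested among 11477 genes. Fosb, with a mean of 0.25 TPM, was not tested. Fos and Fosl1 passed that minimum only through TP replicate 2. Their means without it were 0.826 and 0.278 TPM, so these 2 members had to stand high in that library to be tested.

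The libraries themselves differed. Markers of acinar cells, which secrete digestive enzymes, took 52.9% to 74.2% of TPM in 5 libraries and 18.0% in TP replicate 2. Against the control mean, the log2 level of the median tested gene was 3.00 for TP replicate 2, 0.00 for TP replicate 1, and 0.97 and 1.22 for the treated rats. All 6 fat cell markers were highest in TP replicate 2, with a summed 5932 TPM against 18.3 to 44.5 TPM elsewhere. All 6 macrophage markers, all 5 neutrophil markers, all 5 fibroblast markers found and all 4 endothelial markers found were also highest there. The controls differed too: 5 lymphocyte markers summed to 0.09 TPM in control replicate 1 and 28.85 TPM in control replicate 2. In bulk tissue, fewer cells of a type and less RNA per cell cannot be told apart.

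All 10 members showed 1 order of libraries: the controls and TP replicate 1 were lowest, both TP+hucMSC-Exs libraries were intermediate, and TP replicate 2 was highest. Summed over the 10 members, the level was 11.5 and 20.9 TPM (controls), 10.4 and 245 TPM (TP) and 81.3 and 115 TPM (treated). The order was shared by most of the transcriptome. TP replicate 2 was highest for 91.3% of tested genes, and both TP+hucMSC-Exs libraries lay between the 2 TP libraries for 86.3%. The order of libraries therefore says nothing particular about these genes, and their level relative to the median gene is given further on.

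**Figure D1:**
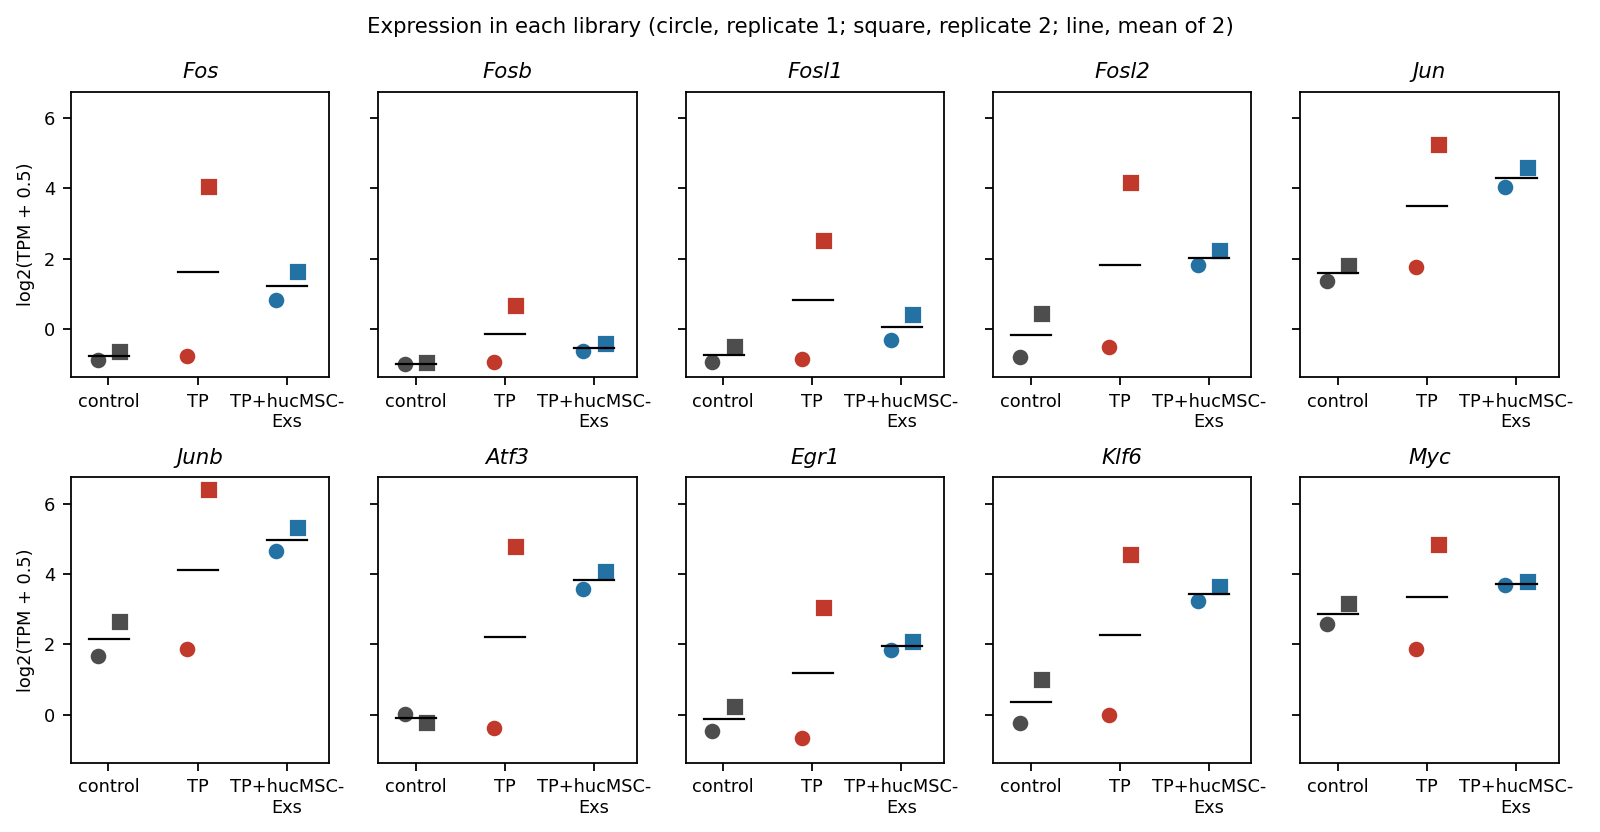
Level of each of the 10 genes as log2(TPM + 0.5) on the y axis, by group on the x axis; circles are replicate 1, squares replicate 2, lines the mean of 2 libraries. In every panel TP replicate 2 is the highest point and the TP+hucMSC-Exs libraries lie between the TP libraries.

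The proteins of the Fos family need a Jun partner to bind DNA. Fos (ENSRNOG00000008015), the founding member, measured 0.04 and 0.14 TPM (controls), 0.09 and 15.87 TPM (TP) and 1.28 and 2.58 TPM (treated). TP replicate 1 lay within the control range, while TP replicate 2 was 8.22 times the TP+hucMSC-Exs mean. Fosl2 (ENSRNOG00000052357), encoding Fra-2, measured 0.08 and 0.85 TPM (controls), 0.20 and 17.25 TPM (TP) and 3.04 and 4.15 TPM (treated). Fosl1 (ENSRNOG00000020552), encoding Fra-1, measured 0.02 and 0.20 TPM (controls), 0.05 and 5.19 TPM (TP) and 0.31 and 0.81 TPM (treated). Only TP replicate 2 held more than 1 TPM of Fosl1. Fosb (ENSRNOG00000046667) was listed at 0 TPM in control replicate 1 and at 0.01 TPM in control replicate 2. It reached 1.08 TPM in TP replicate 2, against 0.02 TPM in TP replicate 1 and 0.15 and 0.24 TPM in the TP+hucMSC-Exs libraries. At these levels Fosb is close to the limit of what the table resolves, 0.01 TPM.

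The Jun family, which can form AP-1 with or without a Fos protein, was more abundant in each library, at 41.4% to 57.8% of the summed TPM of the 10 genes against 1.22% to 16.1% for the 4 Fos family genes. Junb (ENSRNOG00000042838), often a weaker activator than Jun, measured 2.66 and 5.75 TPM (controls), 3.12 and 82.98 TPM (TP) and 24.75 and 38.96 TPM (treated). Jun (ENSRNOG00000026293), the target of the JNK kinases, measured 2.08 and 2.99 TPM (controls), 2.90 and 37.27 TPM (TP) and 15.90 and 23.51 TPM (treated). For both genes the treated libraries exceeded each control library and TP replicate 1. The ratio of Jun to Fos TPM was 52.0 and 21.4 in the controls and 32.2 in TP replicate 1. It was 12.4 and 9.11 in the TP+hucMSC-Exs libraries and 2.35 in TP replicate 2, the library with the most Fos per Jun.

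Atf3 (ENSRNOG00000003745), a stress-induced bZIP factor that pairs with Jun proteins, had the highest ratio of treated to control TPM among the 9 tested members. It measured 0.51 and 0.35 TPM (controls), 0.27 and 26.88 TPM (TP) and 11.38 and 16.30 TPM (treated). Its TP+hucMSC-Exs mean was 13.8 TPM ± 3.48 (SD, n = 2) against 0.430 TPM ± 0.113 (SD, n = 2) in the controls, a ratio of 32.2. Atf3 was the 1 member whose control replicate 2 lay below control replicate 1, the reverse of 91.1% of tested genes.

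The zinc finger factors and Myc differed from each other. Klf6 (ENSRNOG00000016885), an injury-induced Krüppel-like factor, measured 0.35 and 1.46 TPM (controls), 0.50 and 22.79 TPM (TP) and 8.98 and 11.78 TPM (treated). Egr1 (ENSRNOG00000019422), a classical serum response gene, measured 0.22 and 0.67 TPM (controls), 0.13 and 7.68 TPM (TP) and 3.07 and 3.67 TPM (treated). Myc (ENSRNOG00000004500), a driver of cell growth, was the most abundant member in the controls, at 5.50 and 8.43 TPM. Its other values were 3.13 and 27.77 TPM (TP) and 12.41 and 13.14 TPM (treated), a treated to control ratio of 1.83. Myc, Egr1 and Atf3 were below both controls in TP replicate 1, as were 17.1% of tested genes. The other 6 tested members lay between the controls there, as did 53.4% of tested genes.

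The make-up of the 10 transcripts within a library does not depend on how libraries are scaled to each other. Myc took 48.0% and 40.4% of the summed TPM in the controls, 30.1% in TP replicate 1, 15.3% and 11.4% in the TP+hucMSC-Exs libraries and 11.3% in TP replicate 2. Atf3 took 4.45% and 1.68% in the controls, 2.59% in TP replicate 1, 14.0% and 14.2% in the treated libraries and 11.0% in TP replicate 2. The ratio of Atf3 to Myc TPM was 0.0927, 0.0415 and 0.0863 in the controls and TP replicate 1. It was 0.917 and 1.24 in the treated libraries and 0.968 in TP replicate 2. Atf3 and Myc had the highest and lowest ratios of treated to control TPM among the tested members. The share of gene pairs whose ratio separates the libraries in this way was not computed. The ratio of Junb to Myc was 0.484 and 0.682 (controls), 0.997 and 2.99 (TP) and 1.99 and 2.96 (treated). The 4 Fos family genes together took 16.1% in TP replicate 2 against 5.88% and 6.76% in the treated libraries, 3.46% in TP replicate 1 and 1.22% and 5.76% in the controls. TP replicate 2 thus resembled the treated libraries more than the controls in its shares of Atf3 and Myc, and had the largest share of Fos family transcripts of all 6 libraries. An exact two-sided permutation test of 2 against 2 cannot give a p below 0.333, so these ratios were not tested.

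**Figure D2:**
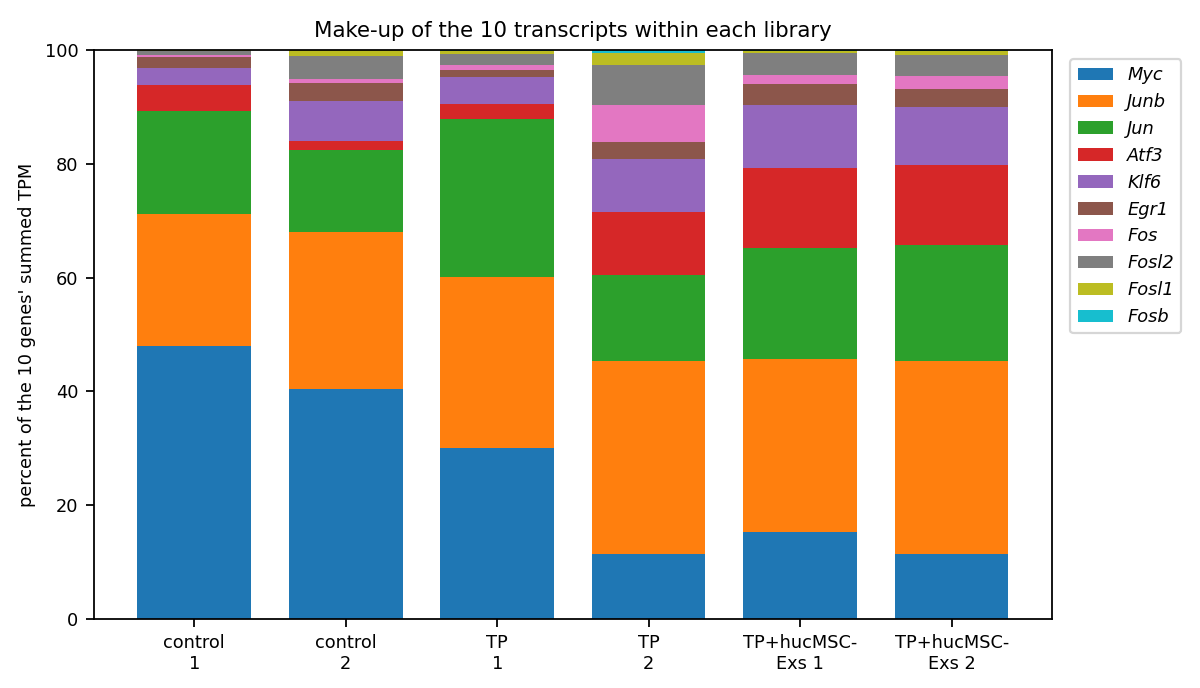
Percent of the 10 genes' summed TPM taken by each gene (y axis) in each library (x axis), as stacked bars that reach 100%. Myc takes 40.4% to 48.0% in the controls and 11.3% to 15.3% in TP replicate 2 and the TP+hucMSC-Exs libraries.

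The comparison of TP+hucMSC-Exs with control asked how treated injured pancreas differed from handled but uninjured pancreas. All 10 members had both treated libraries above both controls, as had 86.9% of tested genes (none had both below, against 1.63%), so the separation as such is near the share over all genes. The log2 fold change was 3.93 ± 1.43 for Atf3, 3.06 ± 1.43 for Klf6, 2.83 ± 1.41 for Junb and 2.73 ± 1.43 for Jun, against a median of 1.09 over all tested genes. It was 2.20 ± 1.44 for Fosl2, 2.07 ± 1.45 for Egr1 and 1.99 ± 1.49 for Fos. Myc, at 0.86 ± 1.42, and Fosl1, at 0.77 ± 1.59, lay below the median gene. The ratio of mean TPM without a pseudocount was 21.4 for Fos and 5.09 for Fosl1, against a median of 2.65 over 10813 genes. The low place of Fosl1 on the log2 scale therefore depends on the pseudocount of 0.5. Myc, at a ratio of 1.83, was below the median gene on both scales. The place of Fos and Fosl2 below Junb and Jun depends on the pseudocount too. With a pseudocount of 0.1 the log2 fold change was 3.39 for Fos, 3.14 for Fosl2, 2.95 for Junb and 2.90 for Jun.

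None of the 9 tested members passed the threshold of an adjusted p below 0.05 in limma, where 24 of 11477 genes did, 0.209%. The lowest adjusted p was 0.720, for Atf3. In limma the unadjusted p was below 0.05 for 3 members, against 2.95% of all tested genes. They were Atf3 (0.00582), Klf6 (0.0316) and Junb (0.0454). The 2 TP libraries widened the common spread: the standard error for Atf3 was 1.43 with them and 0.39 when fitted without them. Fitted on the control and TP+hucMSC-Exs libraries alone, 8 of 8 tested members were called higher, with adjusted p from 2.25e-07 for Atf3 to 0.0408 for Myc, but so were most genes: 71.0% of 9220 were called. Fos, Fosl2, Atf3, Egr1 and Klf6 had control means of at most 0.905 TPM. They were tested there only through their treated level, so their calls add no support. In the fit without TP replicate 2 this holds for Fosl2, Atf3, Egr1 and Klf6 as well. Without TP replicate 2, 7 of 7 were called beside 69.3% of genes, and without TP replicate 1, 7 of 9 beside 51.3%.

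Scaling each library to its median gene removes that general shift, and took the median log2 change of all genes from 1.09 to 0.02. With this median-of-ratios scaling the log2 fold change was 2.94 ± 0.81 for Atf3, 2.04 ± 0.61 for Klf6, 1.48 ± 0.45 for Junb and 1.42 ± 0.24 for Jun. These 4 members had an unadjusted p below 0.05, as had 9.31% of tested genes, and 0 of 9 members passed after adjustment, beside 0.0174% of genes (limma; lowest adjusted p = 0.202, for Jun). With the same scaling and TP replicate 2 left out, a setting chosen after seeing the data, 4 of 7 tested members were called higher, beside 7.07% of 8856 genes in either direction. They were Atf3 (adjusted p = 0.0324), Jun (adjusted p = 0.0403), Junb (adjusted p = 0.0440) and Klf6 (adjusted p = 0.0486). Atf3 and Klf6 were tested in that setting only through their treated level, so their calls add no support. With the scaling and all 6 libraries, Myc was -0.52 ± 0.25 (limma adjusted p = 0.607). Both treated libraries also exceeded both controls in 5 of 6 macrophage, 7 of 7 duct and 4 of 5 neutrophil markers. The same held for 4 of 5 fibroblast and 3 of 4 endothelial markers, and for 86.9% of tested genes. It held for 0 of 6 fat cell, 0 of 5 lymphocyte, 0 of 6 islet and 1 of 23 acinar markers. The summed levels were 390 and 735 TPM against 13.4 and 129 TPM in the controls for the 6 macrophage genes, and 748 and 945 TPM against 69.8 and 75.6 TPM for the 7 duct genes. The 5 neutrophil genes summed to 56.7 and 103 TPM against 0.5 and 3.0 TPM. The part of these cell types in the result was not tested.

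**Figure D3:**
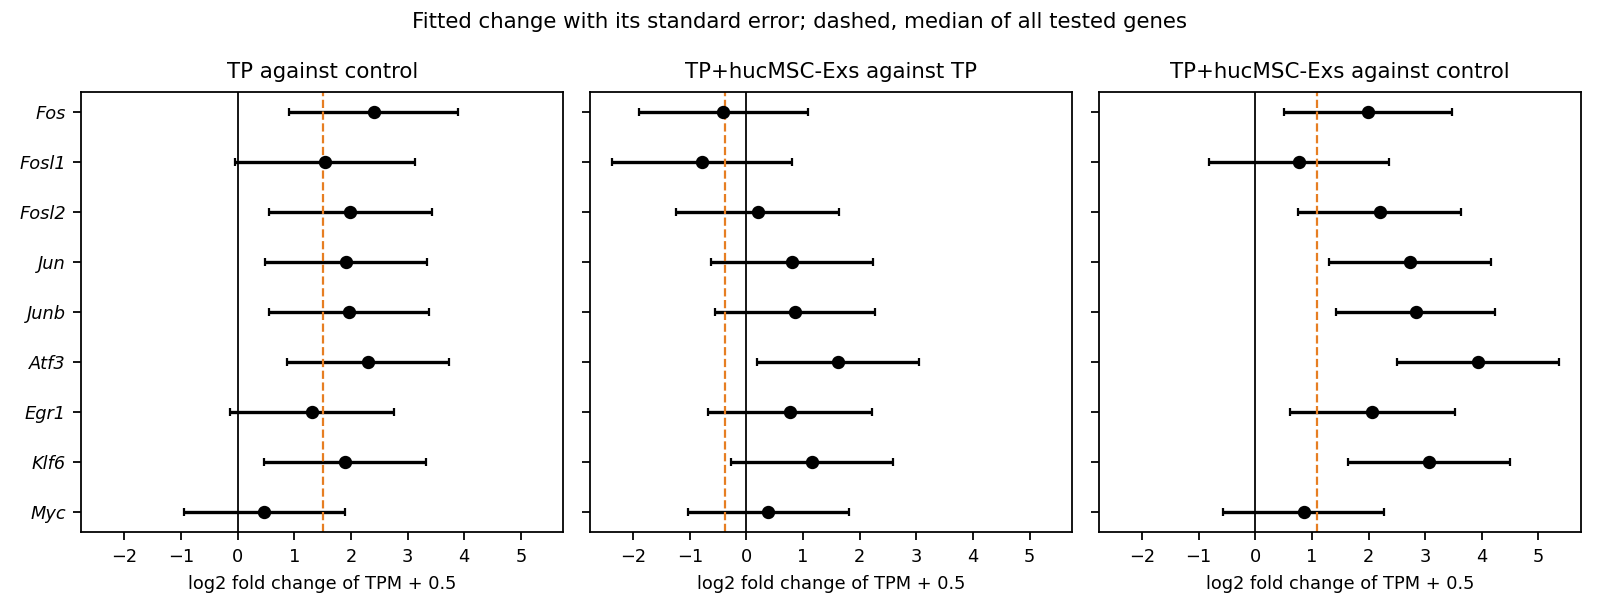
Fitted log2 fold change (x axis, points) with its standard error (bars) for the 9 tested genes in each of the 3 comparisons; the dashed line is the median of all tested genes. In TP+hucMSC-Exs against control, Atf3, Klf6, Junb and Jun lie farthest to the right of the median of 1.09, and Myc and Fosl1 lie to its left.

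The comparison of TP with control addressed the crush alone. Of the 9 tested members, 0 passed in limma, 0 had an unadjusted p below 0.05, and 0 had both TP libraries above both controls, against 0.0523%, 4.06% and 23.1% of tested genes. None had both TP libraries below both controls, against 1.09% of genes. Fosb, not tested, was the 1 member whose TP libraries did not overlap the controls, at 0.02 and 1.08 TPM against 0 and 0.01 TPM. The fitted log2 changes ran from 0.47 ± 1.42 for Myc to 2.40 ± 1.49 for Fos, and 7 of 9 members lay above the median gene at 1.50. Among the 7 were Fos and Fosl1, which were tested only because TP replicate 2 was high, so their place adds no support. The fitted TP means join 2 unlike libraries. Without TP replicate 2, 0 of 7 tested members and 0.339% of genes were called. The log2 change was then negative for 6 of the 7, from -1.01 for Myc to -0.27 for Atf3, and 0.18 for Jun. Without TP replicate 1 it was between 1.95 for Myc and 4.89 for Atf3, with 9 of 9 members called beside 93.2% of genes, a count that includes Fos and Fosl1, which were tested only because that library was high. The direction turned with the TP library used for Fosl2, Junb, Atf3, Egr1, Klf6 and Myc. Jun was positive with either, and Fos and Fosl1 were not tested without TP replicate 2.

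The comparison of TP+hucMSC-Exs with TP addressed the effect of exosomes in crushed rats. In 0 of 10 members did the treated libraries separate from the TP libraries, while they did so upward in 5.09% and downward in 1.62% of tested genes. In limma 0 of 9 members passed and 0 had an unadjusted p below 0.05, against 0.0697% and 1.32% of genes. The log2 fold change was 1.62 for Atf3, with a 95% interval of -1.17 to 4.41, and -0.78 for Fosl1, with an interval of -3.90 to 2.34. Intervals this wide include large changes in either direction. Against TP replicate 1 alone, 7 of 7 tested members were called higher, from 1.87 for Myc to 4.20 for Atf3 on the log2 scale, beside 40.7% of genes called. Against TP replicate 2 alone, all 9 were lower, from -2.81 for Fos to -0.93 for Jun, and 4 were called, beside 83.4% of genes. Those 4 were Fosl2 (adjusted p = 0.0245), Myc (adjusted p = 0.0438), Fos and Fosl1. The last 2 were tested only because TP replicate 2 was high, so their being lower than that library is set by the filter and is no support. Likewise, Atf3, Klf6, Egr1 and Fosl2 were tested against TP replicate 1 only through their treated libraries. Their being higher there is no support either. In these 2 fits the single TP library is assumed to vary like the other groups.

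Relative to the median gene of each library, the members showed patterns that TPM alone does not show. Atf3 lay 2.71 and 2.96 above it in the TP+hucMSC-Exs libraries, 1.88 above it in TP replicate 2 and -0.27 from it in TP replicate 1, on the log2 scale against the control mean. Klf6 stood at 1.90 and 2.03 in the treated libraries and 1.17 in TP replicate 2. Junb stood at 1.53 and 1.93 against 1.23, and Jun at 1.48 and 1.78 against 0.65. Egr1 stood at 0.99 and 0.96 against 0.15. For these 5 genes both treated libraries were above TP replicate 2 once the shift of the median gene was taken out, the reverse of their order in TPM. The share of all tested genes that reverse in this way was not computed. It is therefore not known whether the reversal is particular to these genes. Fos, at 0.63 and 1.17 in the treated libraries and 1.80 in TP replicate 2, and Fosl2, at 1.03 and 1.17 against 1.32, kept TP replicate 2 highest. Fosl1, at -0.55 and -0.10 against 0.23, did too. Fos and Fosl1 were tested only because TP replicate 2 was high, so their standing highest there is favoured by the filter and is no support. The low treated values of Fosl1 also depend on the pseudocount. Without it, the ratio of treated to control mean TPM was 5.09 for Fosl1, above the median of 2.65. Myc was below the median gene in all 4 injured libraries, at -1.01 and -1.05 (TP) and -0.15 and -0.32 (treated). In the treated libraries Atf3 ranked above 99.1% and 99.2% of tested genes by this change, and Jun above 96.5% and 96.9%.

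**Figure D4:**
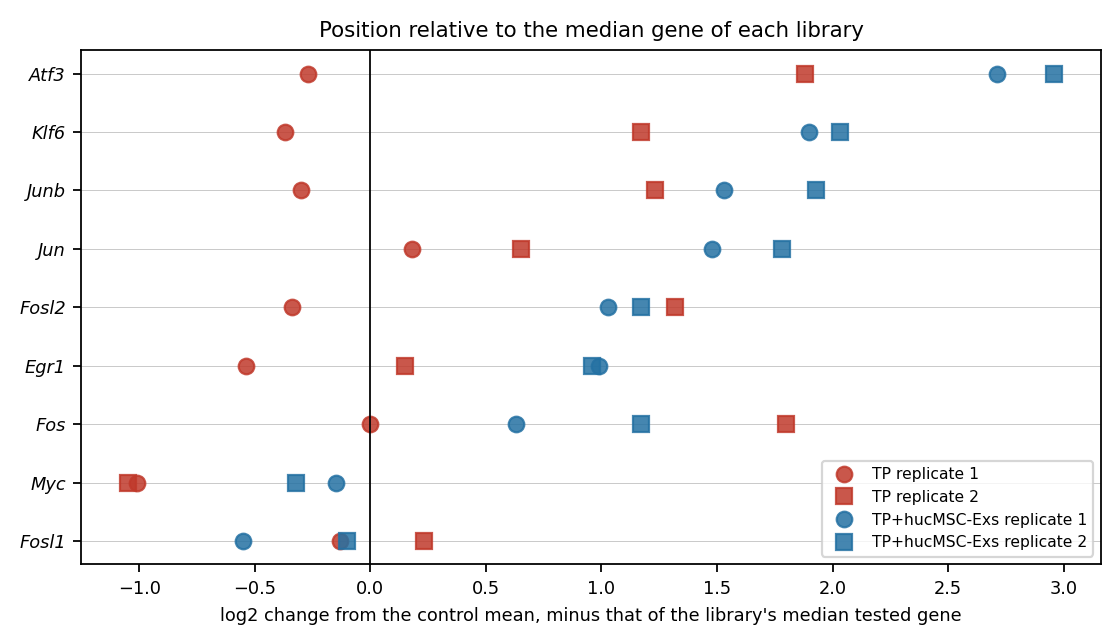
Log2 change of 9 genes from their control mean, minus that of the library's median tested gene (x axis), in the 4 injured libraries; each point is 1 library, red for TP and blue for TP+hucMSC-Exs. The treated libraries of Atf3, Klf6, Junb, Jun and Egr1 lie to the right of TP replicate 2, and those of Fos, Fosl2 and Fosl1 to its left. Fos and Fosl1 were tested only because TP replicate 2 was high.

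Under median-of-ratios scaling this gave higher fitted values in TP+hucMSC-Exs than in TP for Atf3 (2.16), Klf6 (1.62), Egr1 (1.32), Junb (1.19), Jun (1.12) and Myc (0.69). Each of the 6 had an unadjusted p below 0.05, as had 7.21% of tested genes, and 0 of 9 members passed after adjustment with limma, beside 0.0174% of genes (lowest adjusted p = 0.374, for Jun). Fosl2 stood at 0.79, Fos at 0.30 and Fosl1 at -0.07 with the same scaling. Whether the 2 sets of genes differ from each other was not tested, and Fos and Fosl1 were in the fit only because TP replicate 2 was high.

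Other AP-1 and immediate early genes were read from lists chosen with earlier results of these data known. Of 8 other AP-1 and small Maf factors 7 were tested, and all 7 had both treated libraries above both controls, as had 86.9% of all tested genes. Their median log2 change against control was 1.51, between that of all tested genes (1.09) and that of the members (2.20), and 0 passed in any comparison. Jund, the Jun protein typical of resting cells, measured 7.93 and 11.39 TPM (controls), 12.80 and 52.43 TPM (TP) and 51.28 and 59.24 TPM (treated). It did not follow the common order, since treated replicate 2 exceeded TP replicate 2. Jdp2, a repressor that binds AP-1 sites, did follow it, at 0.23 and 0.57 TPM (controls), 0.67 and 32.84 TPM (TP) and 3.11 and 4.18 TPM (treated).

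Of 25 other immediate early symbols 23 were in the table and 17 were tested. Their median log2 change was 1.91 in TP+hucMSC-Exs against control, with 0 passing in limma and 2 of 17 at an unadjusted p below 0.05, against 2.95% of all tested genes. Both treated libraries were above both controls in 16 of 17, against 86.9% of all tested genes. The exception was Zfp36, which destabilises cytokine mRNA, at 7.09 and 10.60 TPM (controls) against 8.99 and 13.55 TPM (treated). Btg2, an antiproliferative gene, measured 16.67 and 24.31 TPM (controls), 14.30 and 35.60 TPM (TP) and 62.03 and 95.30 TPM (treated). Its treated libraries were above both TP libraries, which occurred for 1 of the 17 genes and for 5.09% of all tested genes. Phlda1 was the other gene whose treated libraries did not both lie between the TP libraries, at 6.81 and 9.57 TPM against 1.20 and 9.16 TPM. Zfp36 and Phlda1 were named after their values were seen. Rhob, a small GTPase gene, measured 2.71 and 4.79 TPM (controls), 2.36 and 118 TPM (TP) and 15.81 and 22.44 TPM (treated).

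The MAP kinases and serum response factor genes that feed AP-1 had a median log2 change of 1.16 in TP+hucMSC-Exs against control, with 1.09 over all genes, and of 1.45 in TP against control, with 1.50 over all genes. It was -0.14 in TP+hucMSC-Exs against TP, with -0.38 over all genes. All 14 in the table were tested, 9, 6 and 10 of them lay above the median gene in these comparisons in turn, and 0 passed in any comparison. Mapk3, encoding ERK1, measured 5.32 and 7.21 TPM (controls), 6.05 and 85.57 TPM (TP) and 28.08 and 35.98 TPM (treated). Mapk14, encoding p38 alpha, stood at 8.24 and 11.20 TPM (controls), 8.08 and 46.64 TPM (TP) and 17.74 and 19.03 TPM (treated). Transcript levels of kinases say nothing of their phosphorylation, which was not measured.

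Of 14 genes known as AP-1 targets, 10 were tested, with a median log2 change of 3.14 in TP against control and 2.83 in TP+hucMSC-Exs against control, and 10 of 10 and 9 of 10 lay above the median gene. Their median was -0.39 in TP+hucMSC-Exs against TP, with -0.38 over all genes, and 5 of 10 lay above the median gene. Both TP libraries exceeded both controls in 6 of 10, and both treated libraries in 10 of 10, against 23.1% and 86.9% of tested genes. In limma 6 and 5 of 10 had an unadjusted p below 0.05 in these comparisons, against 4.06% and 2.95%. Some, such as Mmp9 and Hbegf, were tested only through injured libraries, so these counts are a description. Timp1, an inhibitor of matrix metalloproteinases, was the 1 listed gene called higher in TP against control. It measured 0.92 and 2.98 TPM (controls) and 13.32 and 1089 TPM (TP), a log2 fold change of 5.79 ± 1.37 (limma adjusted p = 0.0472). Without TP replicate 2 the value was 2.64 (adjusted p = 0.169), and with median-of-ratios scaling 4.26 (adjusted p = 0.710). Leaving out any single library other than TP replicate 1 ended the call. In the treated libraries it stood at 69.60 and 100.2 TPM (5.24 ± 1.37 against control, adjusted p = 0.0591). Spp1, encoding osteopontin, measured 3.68 and 2.87 TPM (controls), 13.95 and 558 TPM (TP) and 88.79 and 150.0 TPM (treated). Both are also transcribed in fibroblasts or macrophages, and the summed fibroblast markers stood at 4353 TPM in TP replicate 2 against 29.8 to 147 TPM elsewhere. The part of those cells was not tested.

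Partners and known targets of Myc had a median log2 change of 1.43 in TP+hucMSC-Exs against control over 11 tested genes, with 0 passing in any comparison. The nucleolar protein gene Npm1 measured 24.20 and 43.49 TPM (controls), 40.55 and 331 TPM (TP) and 99.78 and 132 TPM (treated). Ldha, a lactate dehydrogenase subunit, stood at 10.47 and 22.56 TPM (controls), 16.61 and 618 TPM (TP) and 61.83 and 95.90 TPM (treated). Of the 11 genes, 7 lay above the median gene in that comparison, while Myc itself lay below it.

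Likeness between genes was measured as the distance between log2 values centred on each gene's mean over the 6 libraries. The nearest pair among the members was Junb and Klf6, 0.40 apart (Pearson r = 0.997), and Jun and Egr1 were 0.81 apart (r = 0.980). Fos was nearest to Fosl2, at 0.97 (r = 0.974). Among 9927 tested genes with a unique, proper symbol, the nearest to Atf3 was Adam8 at 0.82, to Fos was Plau at 0.24, to Junb was Arhgef2 at 0.27 and to Klf6 was Map4k4 at 0.25. Fosl2 was nearest to Coro1b, Jun to Sh3glb1, Egr1 to Pmvk, Fosl1 to Tcf4 and Myc to Snapc5, at 0.12 to 0.30. The 6 libraries share the general shift described above, so these values are given as a description.

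Promoter sequences were in the RefSeq table for 6 members, Egr1, Fosb, Fosl1, Fosl2, Junb and Klf6. The 250 bases before the annotated start are shown for Junb and Klf6, which lay far above the median gene in the treated libraries, and for Fosl1, which did not on the log2 scale. They are written 5′ to 3′ on the gene's strand, with matches to the motifs searched in capitals. Junb lies at chr19:40080876-40081125 (plus strand), Klf6 at chr17:69458479-69458728 (minus strand) and Fosl1 at chr1:212183635-212183884 (plus strand), all in build GRCr8.
Junb: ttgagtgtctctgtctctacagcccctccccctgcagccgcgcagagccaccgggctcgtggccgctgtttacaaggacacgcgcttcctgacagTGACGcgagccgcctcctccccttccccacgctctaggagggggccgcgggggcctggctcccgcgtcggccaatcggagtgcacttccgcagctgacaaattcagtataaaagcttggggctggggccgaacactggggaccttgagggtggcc
Klf6: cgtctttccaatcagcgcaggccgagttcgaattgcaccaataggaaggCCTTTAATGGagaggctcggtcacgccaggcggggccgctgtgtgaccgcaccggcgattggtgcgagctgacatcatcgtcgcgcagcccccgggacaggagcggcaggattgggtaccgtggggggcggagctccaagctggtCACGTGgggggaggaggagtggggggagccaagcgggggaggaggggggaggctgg
Fosl1: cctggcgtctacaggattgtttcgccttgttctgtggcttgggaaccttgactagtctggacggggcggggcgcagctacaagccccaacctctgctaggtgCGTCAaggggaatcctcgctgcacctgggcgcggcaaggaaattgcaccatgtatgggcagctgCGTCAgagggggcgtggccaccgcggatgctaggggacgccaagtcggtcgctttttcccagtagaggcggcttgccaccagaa

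The motifs, searched on both strands, were the AP-1 site TGANTCA, the cyclic AMP response element TGACGTCA, its core TGACG (which the full element contains), the CArG box bound by serum response factor, and the E-box CACGTG bound by Myc. The AP-1 site and the full cyclic AMP response element were found in 0 of the 6 windows, against 6.34% and 1.59% of 33469 promoters of the same length. The core TGACG was in 3 of 6, those of Fosl1, Junb and Egr1, against 18.2% of promoters. A CArG box was in 2 of 6, Egr1 with 2 copies and Klf6 with 1, against 1.50%, and an E-box in that of Klf6 alone, against 5.59%. These matches describe letters in a short window and not binding, which was not measured.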

How the data were processed

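Pancreas RNA from 6 rats was measured by RNA sequencing, with libraries made by a SMARTer mRNA kit, per the labels' protocols. The authors deposited gene-level TPM, 1 column per library, each summing to 1000000, so depth and counting error are unknown. Builds named in the submitters' processing notes are GRCm38 and mm10, both of mouse, although gene identifiers are those of rat Ensembl or MSTRG. No aligner is given in the sources used here. The authors' deposited group-mean TPM columns were not tested. The TP library columns carry a number that no label explains and were assigned by name and replicate number.

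Genes averaging 1 TPM or more across the libraries of a fit were tested on log2(TPM + 0.5) with limma 3.58.1 in R 4.3.3, empirical Bayes moderation with a variance trend, 3 residual degrees of freedom and infinite prior degrees of freedom. P-values were two-sided and adjusted by Benjamini-Hochberg over all genes tested, with a threshold of 0.05. The fit was tested on simulated data with independent noise for each gene. The simulation held no shift common to a library, such as that of TP replicate 2, so it does not cover that feature. The 2 rats of a group are separate animals per the series' description. All 10 members were named, and from each other list the genes called and the 2 of highest mean TPM. Members and lists were chosen with earlier results of these data known. Alternatives were other pseudocounts, filters, scalings, groups in the fit, the replicate number as a block, and leaving out each library. Promoters came from RefSeq, build GRCr8.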

Additional observations from a re-analysis of the deposited data

How the results depend on the processing

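Members called numbered 0 of 9 in each comparison and stayed at 0 with another pseudocount, filter, variance trend or scaling, and with the replicate block. With only the 2 groups compared, where Fos, Fosl2, Atf3, Egr1 and Klf6 passed only through treated libraries, 8 were called in TP+hucMSC-Exs against control. With median-of-ratios scaling and without TP replicate 2, a setting chosen after seeing the data, 4 were. Without 1 library the count ranged from 0 to 9 in TP against control and from 0 to 7 in TP+hucMSC-Exs against TP and against control, above 0 only without a TP library.

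Counts over all genes moved more. In TP against control 6 genes were called, 14 with a pseudocount of 0.1, 2 with TPM rescaled without digestive enzymes, 0 with no filter, median-of-ratios scaling, quantile normalization or only the 2 groups compared (160, 668, 642 and 81 at an unadjusted p below 0.05 in limma), 2 with median-of-ratios scaling and without TP replicate 2, and 0 to 11064 without 1 library. In TP+hucMSC-Exs against TP 8 were called, 0 with no filter or quantile normalization (315 and 983 unadjusted, limma), 2 with median-of-ratios scaling, 1 with only the 2 groups compared, 55 with median-of-ratios scaling and without TP replicate 2, and 0 to 9893 without 1 library. In TP+hucMSC-Exs against control 24 were called, 12 with a pseudocount of 1, 7 with TPM rescaled without digestive enzymes, 0 with no filter or quantile normalization (368 and 1100 unadjusted, limma), 2 with median-of-ratios scaling, 6550 with only the 2 groups compared, 626 with median-of-ratios scaling and without TP replicate 2, and 1 to 6135 without 1 library. The replicate block gave 10, 22 and 35 genes in the 3 comparisons. The replicate numbers were not shown to pair rats: deviations of same-numbered libraries correlated at 0.0804 to 0.279 between groups. Apart from the fits with fewer libraries, the cause was not tested.

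Directions turned for some members, none of them called with all 6 libraries fitted together as deposited. In TP against control, Myc was -0.44 (log2) rescaled without digestive enzymes, -1.21 (median-of-ratios scaling) and -1.20 (quantile), and Egr1 -0.10 and -0.14 with the latter 2. With median-of-ratios scaling and without TP replicate 2, Fosl2 was -0.32, Junb -0.29, Atf3 -0.40, Egr1 -0.76, Klf6 -0.38 and Myc -1.05, and the members' median lay -0.44 from that of all genes. Without 1 library the values ranged from -0.34 to 4.33 for Fosl2, -0.30 to 4.23 for Junb, -0.27 to 4.89 for Atf3, -0.54 to 3.16 for Egr1, -0.37 to 4.17 for Klf6 and -1.01 to 1.95 for Myc, and the distance of the members' median from -0.37 to 1.19. In TP+hucMSC-Exs against TP, Fos was 0.14 with a pseudocount of 0.1, 0.30 (median-of-ratios scaling) and 0.11 (quantile), and Fosl2 -0.04 with a pseudocount of 1. Without 1 library the ranges were -2.13 to 2.54 for Fosl2, -0.93 to 2.55 for Jun, -1.40 to 3.12 for Junb, -0.95 to 4.20 for Atf3, -1.08 to 2.61 for Egr1, -1.11 to 3.43 for Klf6 and -1.09 to 1.87 for Myc. In TP+hucMSC-Exs against control, Myc was -0.52 with median-of-ratios scaling, with or without TP replicate 2, and -0.53 with quantile normalization, and Fosl1 was -0.0007 with quantile normalization. Atf3, Klf6, Junb, Jun, Fosl2, Egr1 and Fos stayed positive in that comparison under all settings in which they were tested.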
